A study of Mus musculus with 6 samples.

Results

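The nuclear-encoded subunits of oxidative phosphorylation were followed in epithelial cells of the submandibular gland, a large salivary gland of the mouse. The genotypes were compared at 12 weeks of age, with 3 p63 knockout libraries set against 3 wild-type libraries. The latter all carry the wild-type genotype label, though their titles are marked either WT or C. p63 is a transcription factor of basal and myoepithelial cells, encoded by Trp63. How the knockout was made, which exons it removes and in which cells are not given in the sources used here, and neither is the allotment of mice to samples, so the spread behind each p-value is that among 6 libraries, which may be partly technical. Members were chosen by gene symbol alone, as the Nduf genes of complex I (series a, b, c, s and v), the 4 Sdh genes of complex II, the Uqcr genes of complex III, the Cox4 to Cox8 genes of complex IV and the Atp5 genes of complex V. They were 82 of the 23366 genes in the table, with 36, 4, 8, 18 and 16 in complexes I, II, III, IV and V. Subunits encoded by mitochondrial DNA were not analysed here.

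Oxidative phosphorylation makes most of the ATP of resting cells in the inner mitochondrial membrane. Complexes I and II take electrons from NADH and succinate, complex III passes them to cytochrome c, and complex IV passes them on to oxygen. Complexes I, III and IV pump protons, and complex V, the ATP synthase, makes ATP from their return. In the salivary gland, ducts that reabsorb ions hold many mitochondria, and the striated ducts are named for the rows of mitochondria along their basal folds.

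Values are TPM, transcript levels per unit of gene length scaled by the authors to a total of 1000000 in each library, so levels can be compared between genes. Trp63 itself had 1.59, 0.816 and 1.76 TPM in knockout libraries 1, 2 and 3, against 3.48, 1.85 and 3.68 TPM in wild-type libraries 1, 2 and 3. It was lower in each knockout library than in any wild-type library but did not pass over all genes (log2 fold change -0.74, SE 0.27, limma adjusted p = 0.27), and a value for the whole gene may hold reads from parts that were not deleted. Between 10634 and 11235 genes reached 1 TPM per library. The 50 most abundant genes took 69.2% to 80.3% of all TPM, the most in knockout library 3.

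Of the 82 members, 76 reached 1 TPM in at least 3 libraries and were tested with limma on log2(TPM + 1), with p-values adjusted over all 11268 genes tested. None passed at 0.05 in either direction, where 0.319% of all genes passed as lower and 0.071% as higher in knockout. The smallest adjusted p of a member was 0.17. At an unadjusted p under 0.05, 10 members were lower (13.2%, against 10.5% of all genes) and 0 higher (against 4.99% of all genes). The 10 were Ndufc1, Ndufs8, Ndufa3, Ndufb2 and Ndufs4 of complex I, Uqcr11 and Uqcrb of complex III, Cox7a1 of complex IV, and Atp5k and Atp5j2 of complex V. The share of members called singly was close to that of all genes.

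Their signs, by contrast, were mostly alike. Of the 76, 70 had a negative log2 fold change (92.1%, against 42.6% of all genes), and 36 were lower in every knockout library than in any wild-type library (47.4%, against 15.6% of all genes). None was higher in that sense (against 5.42% of all genes). The median log2 fold change of the members was -0.29, beside 0.09 over all genes tested. The members share the same 6 libraries, so their signs are not independent of each other. In bulk RNA, fewer cells of a type and less RNA per cell cannot be told apart.

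Summed over all 82 members, subunit transcripts came to 13057, 12790 and 12643 TPM in knockout libraries 1, 2 and 3, against 17189, 14832 and 14153 TPM in wild-type libraries 1, 2 and 3. The groups did not overlap, and wild-type library 1 lay well above the other 2. Knockout libraries averaged 12830 ± 210 TPM, or 1.28% of all TPM, and wild-type libraries averaged 15391 ± 1594 TPM, or 1.54% (SD, 3 libraries each), a ratio of 0.834. Because TPM are shares of a fixed total, this ratio depends on what the remaining genes do. After median-of-ratios scaling, which sets the typical gene equal between libraries, knockout library 3 had 16596 and overlapped the wild-type libraries, while knockout libraries 1 and 2 had 10599 and 10698. The wild-type libraries then had 17576, 15927 and 14522, and the ratio of means was 0.789.

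**Figure D1:**
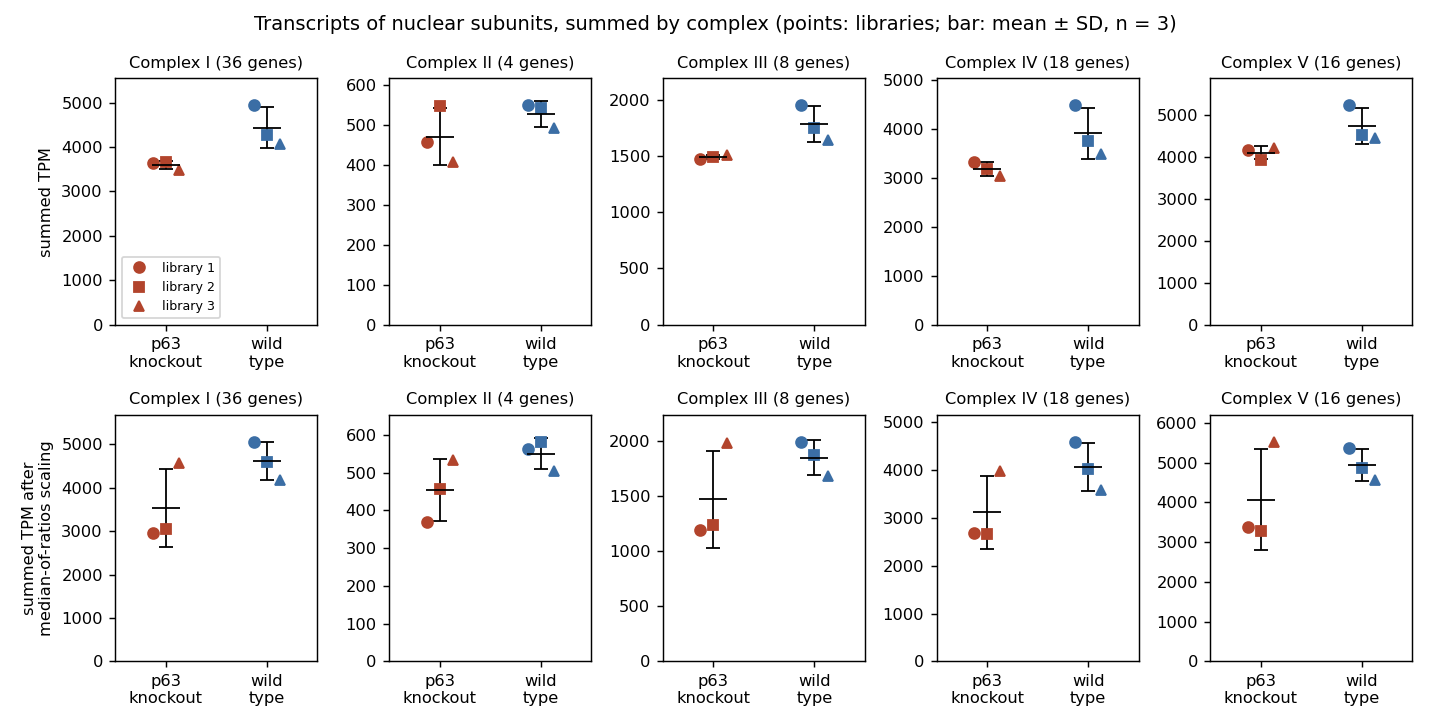
Summed level of nuclear subunit transcripts by complex (columns), in TPM as deposited (top) and after median-of-ratios scaling (bottom), for p63 knockout (left of each panel) and wild-type libraries. Points are libraries and bars are mean ± SD (n = 3); as deposited, the groups are apart in all complexes but II, and after scaling knockout library 3 is above the other knockout libraries, within the wild-type range in complexes I to IV and above it in complex V.

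Complex I, the NADH dehydrogenase, had sums of 3650, 3657 and 3482 TPM in knockout libraries 1, 2 and 3, against 4951, 4273 and 4079 TPM in wild-type libraries 1, 2 and 3. The knockout libraries lay close together and below all wild-type libraries, with a ratio of means of 0.811. Of the 35 members tested, 32 had negative log2 fold changes, with a median of -0.29, and 18 were lower without overlap (42.6% of all genes were negative and 15.6% lower without overlap). The most abundant was Ndufa4, named as a complex I subunit and since assigned to complex IV. It had 348, 285 and 372 TPM in knockout libraries, against 475, 416 and 416 TPM in wild-type libraries (log2 fold change -0.38, SE 0.18, adjusted p = 0.36). Ndufb9, an accessory subunit of the membrane arm, overlapped between the groups at 275, 292 and 284 TPM in knockout, against 360, 288 and 302 TPM in wild type (-0.15, adjusted p = 0.64). Ndufa1, a small membrane-arm subunit, also overlapped, at 226, 215 and 174 TPM in knockout, against 296, 283 and 224 TPM in wild type (-0.38, adjusted p = 0.38).

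The most negative fold change of complex I was that of Ndufc1, a small accessory subunit of the membrane arm. Ndufc1 had 50.9, 35.9 and 83.7 TPM in knockout libraries 1, 2 and 3, against 151, 86.1 and 108 TPM in wild-type libraries 1, 2 and 3. Every knockout library was below every wild-type library, but knockout library 3 came within a few TPM of wild-type library 2, and the gene did not pass (log2 fold change -1.05, SE 0.35, adjusted p = 0.23). Ndufs8, a core subunit that carries iron-sulfur clusters, had 26.7, 32.9 and 47.8 TPM in knockout libraries, against 65.5, 58.3 and 54.1 TPM in wild-type libraries (-0.75, SE 0.25, adjusted p = 0.23). Its groups were apart as well, and knockout library 3 was again the nearest to wild type. Ndufs4, an accessory subunit whose loss impairs complex I in mice, had 39.7, 41.0 and 33.0 TPM in knockout, against 53.0, 55.8 and 52.6 TPM in wild type (-0.50, SE 0.19, adjusted p = 0.27).

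Among other accessory subunits of complex I, Ndufa3 had 117, 110 and 110 TPM in knockout, against 213, 181 and 142 TPM in wild type (-0.65, SE 0.20, adjusted p = 0.21). Ndufb2 of the membrane arm had 115, 93.2 and 120 TPM in knockout, against 180, 154 and 138 TPM in wild type (-0.52, SE 0.20, adjusted p = 0.28). Both were apart between the groups. The tested members of complex I that are not described singly had log2 fold changes between -0.49 (Ndufb7) and 0.05 (Ndufs3).

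The 7 nuclear core subunits of complex I, which hold the flavin and the iron-sulfur clusters or line the path to ubiquinone, were split. Ndufv1, which binds NADH, had 64.3, 67.4 and 60.7 TPM in knockout, against 69.6, 61.9 and 58.0 TPM in wild type (0.02, adjusted p = 0.95). Ndufs7, which carries the last iron-sulfur cluster, had the most positive value of the complex, 83.0, 94.5 and 51.1 TPM in knockout, against 85.1, 67.6 and 60.8 TPM in wild type (0.07, SE 0.28, adjusted p = 0.91). The groups overlapped in both genes. The core had a median of -0.05, with 3 positive and 4 negative members, while the 28 other subunits tested had a median of -0.31 and were all negative. This split was drawn after the values were seen and was not tested. The core genes also had longer transcripts, with a median of 1661 nt against 944.5 nt for the other 28. With GC and length trends removed the medians were 0.03 for the core and -0.09 for the other 28, of which 20 were negative.

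**Figure D2:**
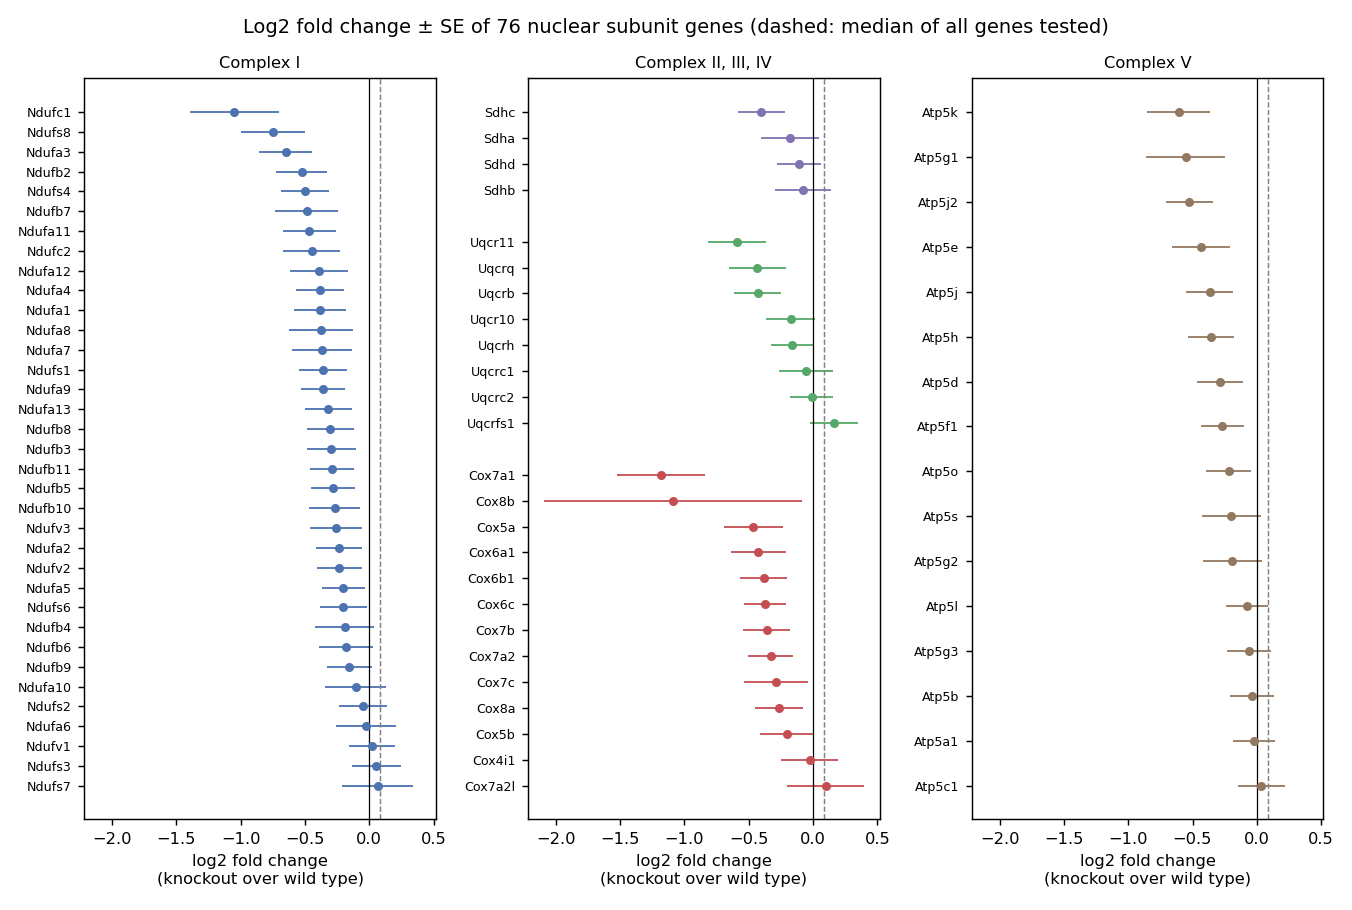
Log2 fold change (knockout over wild type, log2(TPM + 1) scale) ± SE of the 76 members tested, in panels for complex I, complexes II to IV and complex V, ordered within each complex. The dashed line is the median of all 11268 genes tested (0.09), and 70 of the 76 points lie below 0.

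Promoter windows show the sequence at the start of these genes, and are given for the most negative members of complexes I and III and for the pair of extremes that hold no listed motif. They span 250 bases before and 50 bases after the annotated start (RefSeq, GRCm38.p6), run 5′ to 3′ along the gene, and carry motif matches in capitals. Of the 82 members, 68 matched the table by symbol, with 73 windows. The search took exact letters on both strands, with positions counted from 1 at the 5′ end of the window.
Ndufc1, minus strand, chr3:51408906-51409205: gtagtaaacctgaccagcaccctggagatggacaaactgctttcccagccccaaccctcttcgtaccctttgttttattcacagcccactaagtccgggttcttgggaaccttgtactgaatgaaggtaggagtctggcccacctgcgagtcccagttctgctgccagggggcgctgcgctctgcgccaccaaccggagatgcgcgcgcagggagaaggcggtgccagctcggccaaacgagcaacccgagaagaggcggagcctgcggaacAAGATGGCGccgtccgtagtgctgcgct
Uqcr11, minus strand, chr10:80406772-80407071: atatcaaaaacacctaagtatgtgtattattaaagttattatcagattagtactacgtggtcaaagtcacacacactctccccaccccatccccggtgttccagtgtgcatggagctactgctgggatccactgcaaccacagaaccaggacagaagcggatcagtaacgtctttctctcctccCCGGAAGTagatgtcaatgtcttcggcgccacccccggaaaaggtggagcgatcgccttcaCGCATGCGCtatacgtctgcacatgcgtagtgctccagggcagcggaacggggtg
Cox7a1, plus strand, chr7:30183921-30184220: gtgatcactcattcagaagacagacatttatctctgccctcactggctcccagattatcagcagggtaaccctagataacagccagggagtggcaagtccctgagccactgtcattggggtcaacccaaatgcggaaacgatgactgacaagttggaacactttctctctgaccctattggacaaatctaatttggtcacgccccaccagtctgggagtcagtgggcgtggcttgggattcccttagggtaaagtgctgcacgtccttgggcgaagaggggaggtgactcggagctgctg
Uqcrfs1, minus strand, chr13:30545267-30545566: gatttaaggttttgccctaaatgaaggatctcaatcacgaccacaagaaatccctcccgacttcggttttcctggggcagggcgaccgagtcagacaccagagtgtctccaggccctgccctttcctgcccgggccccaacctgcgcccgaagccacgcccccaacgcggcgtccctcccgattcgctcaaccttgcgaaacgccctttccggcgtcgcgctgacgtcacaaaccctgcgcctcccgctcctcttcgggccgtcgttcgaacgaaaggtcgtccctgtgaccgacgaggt

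In the Ndufc1 window, the letters of the YY1 motif, AAGATGGCG, start at base 273 on the gene's strand. In the Uqcr11 window, the ETS motif of GABPA, CCGGAAGT, starts at base 185, and the NRF1 motif, GCGCATGCG, lies on the opposite strand from base 246, so that it reads CGCATGCGC here. NRF1, GABPA and YY1 are known regulators of nuclear genes for mitochondrial proteins. NRF1 letters were in windows of 8 members (10.96% of their windows, against 1.75% of all 32851 windows), YY1 letters in those of 7 (9.59% against 1.40%) and ETS letters in those of 5 (6.85% against 3.89%). The letters of the estrogen-related receptor motif, TCAAGGTCA, were in windows of 2 members, Atp5g3 and Sdhd (2.74% against 0.423%). Member windows also held more CG pairs, a median of 19 against 7, at a GC content of 57.3% against 52.7%. A match of letters is a description of the window, and says nothing about binding in these cells.

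Complex II, succinate dehydrogenase, also belongs to the citric acid cycle. Its 4 genes summed to 456, 548 and 407 TPM in knockout libraries, against 550, 543 and 491 TPM in wild-type libraries, and the groups overlapped (ratio of means 0.891). Sdhb, the iron-sulfur subunit, was the most abundant, at 175, 227 and 142 TPM in knockout, against 204, 188 and 174 TPM in wild type (-0.08, adjusted p = 0.86). Sdha, the flavoprotein, had 83.3, 123 and 91.3 TPM in knockout, against 105, 133 and 97.7 TPM in wild type (-0.18, adjusted p = 0.68). Both catalytic subunits overlapped between the groups. The membrane anchor Sdhc did not overlap, with 96.3, 93.7 and 82.8 TPM in knockout, against 137, 113 and 112 TPM in wild type (-0.40, SE 0.18, adjusted p = 0.35). The other anchor, Sdhd, was apart by a small margin, at 102, 103 and 90.7 TPM in knockout, against 104, 108 and 108 TPM in wild type (-0.11, adjusted p = 0.74).

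Complex III, the cytochrome c reductase, summed to 1475, 1487 and 1509 TPM in knockout libraries, against 1954, 1745 and 1640 TPM in wild-type libraries, without overlap (ratio of means 0.837). Uqcrh, the hinge protein next to cytochrome c1, had 346, 354 and 317 TPM in knockout, against 404, 373 and 361 TPM in wild type (-0.16, adjusted p = 0.61). Uqcrb, a small subunit near the ubiquinone site, had 274, 227 and 287 TPM in knockout, against 387, 327 and 346 TPM in wild type (-0.43, SE 0.18, adjusted p = 0.32). Both were apart between the groups, whereas Uqcrq overlapped because knockout library 3, with 221 TPM beside 143 and 167 TPM, exceeded wild-type library 3, with 208 TPM beside 266 and 236 TPM (-0.43, adjusted p = 0.37). The most negative member was Uqcr11, a small subunit, with 133, 165 and 176 TPM in knockout, against 265, 272 and 184 TPM in wild type (-0.59, SE 0.23, adjusted p = 0.28). Wild-type library 3 was close to the knockout libraries in this gene.

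Uqcrfs1, the Rieske iron-sulfur protein, had the most positive log2 fold change of all members, 0.16 (SE 0.18, adjusted p = 0.64). It had 136, 119 and 116 TPM in knockout, against 120, 97.3 and 115 TPM in wild type, and the groups overlapped. The core proteins Uqcrc1 (-0.05) and Uqcrc2 (-0.01) had log2 fold changes near 0, and both overlapped. Uqcr10, another small subunit, overlapped as well (-0.17, adjusted p = 0.63). Together Uqcrfs1, Uqcrc1 and Uqcrc2 had a median of -0.01, beside -0.43 for the 5 small subunits tested, again a split drawn after the values were seen. Transcript lengths differed here too, with medians of 1896 nt and 605 nt. With GC and length trends removed the core and Rieske genes had a median of 0.16 and the small subunits one of 0.0024, with 2 of 5 negative.

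Complex IV, cytochrome c oxidase, summed to 3314, 3177 and 3032 TPM in knockout libraries, against 4489, 3742 and 3488 TPM in wild-type libraries, without overlap (ratio of means 0.813). Of 13 members tested, 12 had negative log2 fold changes, with a median of -0.36, the lowest of the 5 complexes. Cox6c varied little within the knockout group, at 369, 365 and 367 TPM in knockout, against 504, 483 and 444 TPM in wild type (-0.38, SE 0.16, adjusted p = 0.32). Cox8a had 421, 393 and 357 TPM in knockout, against 554, 418 and 442 TPM in wild type, and overlapped by 1 library (-0.26, adjusted p = 0.48). Cox4i1, a subunit that binds ATP, spread widely within both groups, at 480, 438 and 351 TPM in knockout, against 541, 371 and 389 TPM in wild type (-0.03, adjusted p = 0.95). Cox5a (-0.47), Cox5b (-0.20) and Cox7c (-0.29) overlapped between the groups too, with adjusted p of 0.37, 0.61 and 0.54. Cox7a2l, counted here by its name, is known to join complexes III and IV into supercomplexes. It had 169, 189 and 88.0 TPM in knockout, against 136, 131 and 128 TPM in wild type, so knockout library 3 was lowest and the other 2 knockout libraries highest (0.10, SE 0.30, adjusted p = 0.87).

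Several subunits of complex IV exist in a common form and a tissue form, and the tissue forms were rare here. Cox7a1, the form of heart and skeletal muscle, had 9.66, 8.36 and 20.1 TPM in knockout libraries 1, 2 and 3, against 31.3, 31.9 and 22.2 TPM in wild-type libraries 1, 2 and 3. This was the most negative fold change of all members and the smallest adjusted p (-1.18, SE 0.34, adjusted p = 0.17), with groups apart. Its common counterpart Cox7a2 had 214, 205 and 218 TPM in knockout, against 301, 263 and 239 TPM in wild type (-0.33, adjusted p = 0.38). As a share of the pair, Cox7a1 took 4.33%, 3.93% and 8.45% in knockout, against 9.43%, 10.8% and 8.51% in wild type. The difference of -4.02 percentage points had an exact two-sided permutation p of 0.1, the smallest that 3 against 3 samples can give, and an adjusted p of 0.333 over the 10 isoform shares tested.

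Cox8b, the form of muscle and brown fat, had 2.78, 4.98 and 6.48 TPM in knockout, against 23.9, 33.5 and 0.897 TPM in wild type. The groups overlapped because wild-type library 3 was the lowest of all 6 (-1.09, SE 1.00, adjusted p = 0.57). Like Cox8b, some adipose genes were high in wild-type libraries 1 and 2, though not in the same order within knockout. Ucp1, the uncoupling protein of brown fat, had 0.461, 0.169 and 0.286 TPM in knockout, against 28.5, 53.7 and 0.0990 TPM in wild type, and Cidea, a lipid droplet protein, had 2.06, 1.02 and 0.808 TPM in knockout, against 8.66, 11.6 and 0.699 TPM in wild type. The adipocyte hormone Adipoq was likewise highest in wild-type libraries 1 and 2, with 4.72, 1.64 and 2.16 TPM in knockout, against 14.1, 14.7 and 2.91 TPM in wild type. Cox7a1 shared this order only in part, since wild-type library 3 kept 22.2 TPM. As a list, the 8 brown fat markers summed to 13.996 to 1092 TPM in knockout, against 10.9 to 96.7 TPM in wild type, with 0 of 4 tested passing, and the top of the knockout range was the Pdk4 level of knockout library 1. The 10 adipocyte markers summed to 98.9 to 576 TPM in knockout, against 130 to 366 TPM in wild type, with 0 of 9 tested passing. The part of adipose RNA in Cox8b and Cox7a1 was not tested. Skeletal muscle markers summed to 4.02 to 23.8 TPM in knockout, against 3.72 to 18.6 TPM in wild type, highest in knockout library 3 and wild-type library 3.

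**Figure D3:**
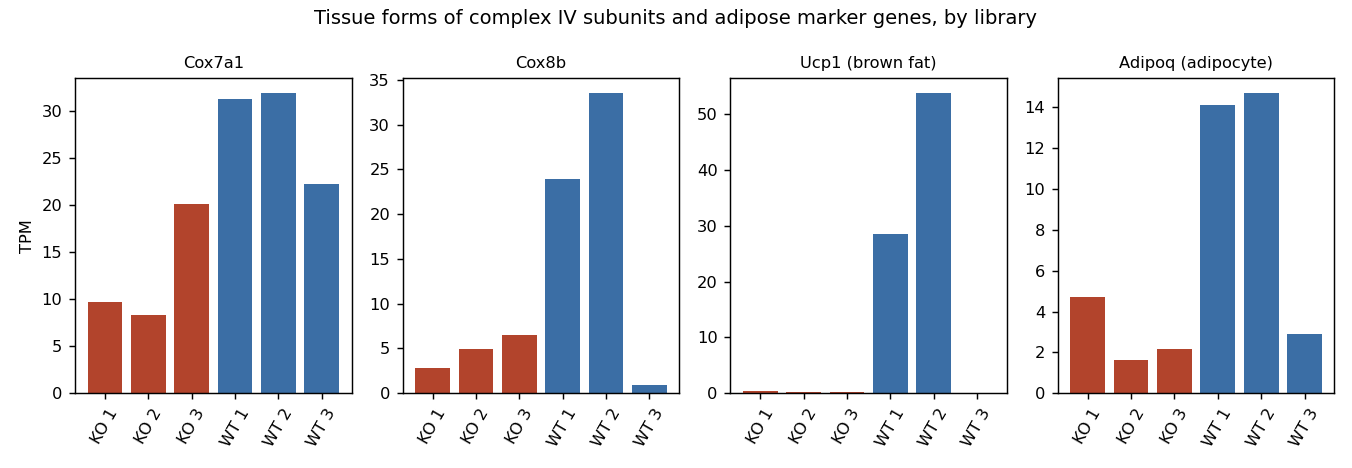
TPM per library of the complex IV tissue forms Cox7a1 and Cox8b beside the brown fat marker Ucp1 and the adipocyte marker Adipoq, with knockout libraries (red) left of wild-type libraries (blue). Cox8b and Ucp1 are high in wild-type libraries 1 and 2 alone, while Cox7a1 is also at 22.2 TPM in wild-type library 3.

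The remaining tissue forms did not reach the filter. Cox4i2, the lung form, had 0.431 to 0.695 TPM in knockout, against 0.224 to 0.658 TPM in wild type, and Cox6a2, the muscle form, had at most 0.713 TPM in knockout and 0.247 TPM in wild type. Cox6b2, a testis form, had 0.209, 0.345 and 0.259 TPM in knockout, against 0.959, 0.565 and 1.08 TPM in wild type. Its share of the Cox6b pair was 0.0768% in knockout and 0.188% in wild type (exact permutation p = 0.1, adjusted p = 0.333). The testis forms Cox7b2 and Cox8c were listed at 0 in most libraries, with at most 0.233 TPM in knockout and 0.143 TPM in wild type. The common forms Cox6a1 (-0.43), Cox6b1 (-0.38) and Cox7b (-0.36) were each lower in all knockout libraries than in any wild-type library (15.6% of all genes were), with limma adjusted p of 0.37, 0.36 and 0.37. Of the other common forms, Cox7a2 was apart as well, while Cox4i1 and Cox8a overlapped. The sixth member below the filter, Ndufs5 of complex I, was listed at 0 in all 6 libraries. Many of these genes have processed copies elsewhere in the genome, and how reads that match several places were counted is not given in the sources used here.

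Complex V summed to 4162, 3921 and 4213 TPM in knockout libraries, against 5245, 4529 and 4455 TPM in wild-type libraries, without overlap (ratio of means 0.864). The catalytic subunits of its F1 sector overlapped between the groups. Atp5b, the beta subunit and the most abundant of all 82 members, had 861, 733 and 789 TPM in knockout, against 887, 802 and 761 TPM in wild type (-0.04, SE 0.17, adjusted p = 0.91). Atp5a1, the alpha subunit, had 415, 400 and 383 TPM in knockout, against 419, 405 and 392 TPM in wild type (-0.02, adjusted p = 0.95). Atp5c1, the gamma subunit of the rotor, had the most positive value of the complex, 176, 167 and 135 TPM in knockout, against 162, 148 and 153 TPM in wild type (0.03, adjusted p = 0.93). The 5 F1 subunits had a median of -0.04 and the 11 other members a median of -0.27, all 11 negative. This split too was drawn after the values were seen. Median transcript lengths were 1735 nt and 932 nt, and with GC and length trends removed the medians were -0.04 and -0.10, with 8 of the 11 negative.

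Outside the F1 sector, Atp5k, the e subunit that helps synthase dimers form, had the most negative value. It stood at 186, 162 and 236 TPM in knockout, against 389, 244 and 267 TPM in wild type, without overlap (-0.61, SE 0.25, adjusted p = 0.30). Atp5j2, the f subunit of the membrane part, had 155, 175 and 165 TPM in knockout, against 250, 263 and 203 TPM in wild type, also apart (-0.53, SE 0.18, adjusted p = 0.25). Atp5l, the g subunit, overlapped (-0.08, adjusted p = 0.81).

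The peripheral stalk, which holds the F1 sector still against the turning rotor, is made of Atp5f1, Atp5h, Atp5j and Atp5o, and all 4 were lower in every knockout library than in any wild-type library (15.6% of all genes were). This subset was picked after the values were seen. Their log2 fold changes were -0.27, -0.36, -0.37 and -0.22, with adjusted p of 0.43, 0.37, 0.37 and 0.52 in that order. Atp5h, for instance, had 245, 238 and 265 TPM in knockout, against 371, 300 and 293 TPM in wild type. Within the F1 sector, the small subunits Atp5e (-0.43, adjusted p = 0.38) and Atp5d (-0.28, adjusted p = 0.44) were the most negative, and Atp5d was the 1 of the 5 that was apart. Atp5s, caught by the symbol rule, was low at 4.01 to 5.48 TPM in knockout, against 4.93 to 6.86 TPM in wild type (-0.20, adjusted p = 0.65).

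Atp5g1, Atp5g2 and Atp5g3 encode the same mature c subunit of the rotor ring and differ in their import sequences. Atp5g3 was the most abundant of them, with 432, 391 and 442 TPM in knockout, against 486, 412 and 423 TPM in wild type (-0.06, adjusted p = 0.86). Atp5g1 had 104, 93.2 and 204 TPM in knockout, against 199, 164 and 194 TPM in wild type, with knockout library 3 the highest of all 6 (-0.55, SE 0.31, adjusted p = 0.39). Atp5g2 had 244, 292 and 179 TPM in knockout, against 300, 271 and 236 TPM in wild type (-0.19, adjusted p = 0.66). Within the trio, Atp5g3 took 55.3%, 50.3% and 53.5% in knockout, against 49.3%, 48.7% and 49.6% in wild type. The groups were apart by 3.86 percentage points on average (exact permutation p = 0.1, adjusted p = 0.333).

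The libraries contributed unequally. Against the wild-type mean, the median member stood at -0.27, -0.28 and -0.29 in knockout libraries 1, 2 and 3, and at 0.15, -0.03 and -0.10 in wild-type libraries 1, 2 and 3. All genes tested had medians of 0.27, 0.24 and -0.29 in the knockout libraries, and of 0.02, -0.03 and 0.01 in the wild-type libraries. The subunits were therefore below the typical gene of their own library by 0.54 and 0.52 in knockout libraries 1 and 2, but level with it in knockout library 3. Wild-type library 1 held the highest value of 54 of the 76 members. Its title is marked C, where those of the other wild-type libraries are marked WT. What C stands for is not given in the sources used here, and its part in these values was not tested. The lowest value was in a knockout library for 71 of 76, namely library 3 for 30, library 2 for 27 and library 1 for 14. These counts of highest and lowest libraries were not made over all genes. Of the 11268 genes tested, 3920, 4062 and 9244 were below the wild-type mean in knockout libraries 1, 2 and 3. Among the 76 members, 64, 60 and 73 were.

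**Figure D4:**
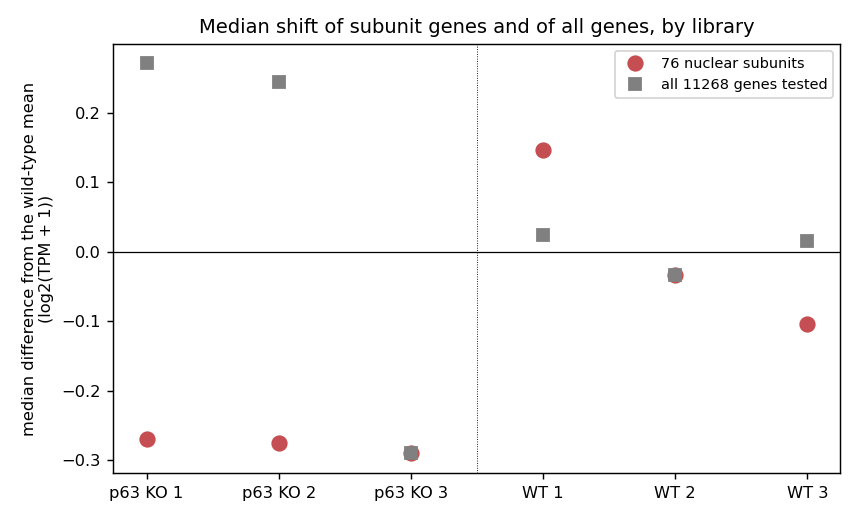
Median difference from the wild-type mean, on the log2(TPM + 1) scale, of the 76 members (red circles) and of all 11268 genes tested (grey squares), by library. Members lie near -0.28 in all 3 knockout libraries, while all genes lie above 0 in knockout libraries 1 and 2 and at -0.29 in knockout library 3.

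Knockout library 3, which stands apart in this way, decides whether single members pass. Without it, 16 members were lower at an adjusted p under 0.05 (21.1%, against 11.7% of all genes) and 1 was higher (1.32%, against 33.8% of all genes). Among the lower ones were Cox7a1 (-1.54), Ndufc1 (-1.36), Ndufs8 (-0.97) and Atp5g1 (-0.90), with limma adjusted p of 0.0013, 0.0060, 0.0032 and 0.0037. The smallest and largest adjusted p over all settings were 0.0013 and 1.0 for Cox7a1, 0.0036 and 1.0 for Ndufc1, 0.0032 and 1.0 for Ndufs8, and 0.0037 and 1.0 for Atp5g1. The higher one was Cox7a2l (0.43, adjusted p = 0.033, over all settings 0.033 to 1.0). With libraries weighted by their fit, which gave knockout library 3 a weight of 0.0900, 15 members were lower (background 11.9%) and 0 higher (background 30.9%), and 13 members were called both ways. In both fits the all-gene median moved up, to 0.26 without knockout library 3 and 0.23 with weights, while the member median was -0.26 and -0.25.

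Transcript length moved with the fold change. Members were short, with a median of 1087.5 nt for the longest annotated transcript (GENCODE M21) against 3292.5 nt for all genes tested, and short genes as a whole had more negative fold changes than long ones. With all genes split by length into 5 groups of equal size, the 2243 genes of the shortest group, up to 1866 nt, had a median log2 fold change of -0.12 and the 58 members among them a median of -0.29. The longer groups, in order of length, held 10, 4, 3 and 1 members, with medians of -0.18, -0.33, -0.52 and -0.08. All genes of these groups had medians of 0.02, 0.09, 0.16 and 0.23. The longest annotated transcript, such as 6310 nt for Atp5l and 4715 nt for Atp5g1, need not be the form expressed here. Once each library's trends against GC content and length were removed, the member median was -0.04 and 48 of 76 were negative (63.2%, against 42.6% of all genes). Removing the length trend alone gave a median of -0.09, and removing the GC trend alone left it at -0.29. With both trends removed, complex III had a positive median of 0.07, and the other complexes ranged from -0.07 to -0.02. Over all settings, Cox7a1 ranged from -1.54 to -0.72, Ndufc1 from -1.37 to -0.77, Ndufs8 from -0.97 to -0.44, Atp5k from -0.75 to -0.30 and Uqcr11 from -0.77 to -0.11. Cox8b ranged from -2.41 to 1.82 and so changed its sign.

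Cytosolic ribosomal proteins served as a second set of short, abundant transcripts. The 76 tested had a median length of 1100 nt but a median log2 fold change of 0.10, with 15 negative. The difference between the medians of subunits and ribosomal proteins was -0.38. It was -0.35 with GC and length trends removed and -0.38 after median-of-ratios scaling. With GC and length trends removed, the medians were -0.04 for subunits, 0.31 for ribosomal proteins and 0.08 for all genes. The subunit median minus that of all genes was then -0.12. Ribosomal proteins stood above the typical gene, with 3 of 76 negative, so the -0.35 is in large part theirs. Over all settings the difference between subunits and ribosomal proteins ranged from -0.52 with array weights to -0.27 without knockout library 2, and it was -0.51 without knockout library 3. A ratio within a library does not depend on scaling. Summed member TPM over summed ribosomal protein TPM came to 0.323, 0.275 and 0.400 in knockout libraries, against 0.442, 0.414 and 0.406 in wild-type libraries, apart but by little in the third library of each group.

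**Figure D5:**
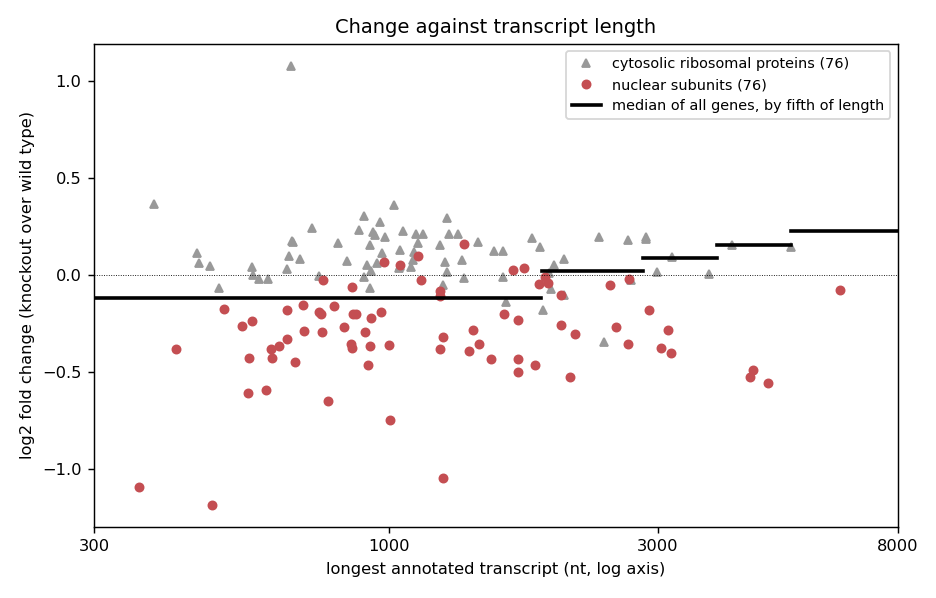
Log2 fold change (knockout over wild type) against the length of the longest annotated transcript (log axis) for 76 nuclear subunits (red circles) and 76 cytosolic ribosomal proteins (grey triangles). Black bars are medians of all genes in 5 length groups of equal size, the lowest being -0.12 in the shortest group, and subunits lie mostly below ribosomal proteins of the same length.

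Other genes were taken from lists, most of them of mitochondrial function, along with glycolysis and the cytosolic ribosomal proteins. In none of these 10 lists did a gene pass limma's test over all genes. For comparison with the counts of these lists, 42.6% of all genes tested were negative. At an unadjusted p under 0.05, 10.5% of all genes were lower and 4.99% higher. Of 19 tested respiratory chain genes outside the symbol rule, such as electron carriers and inhibitors, 14 had negative log2 fold changes, with a median of -0.13 (2 at an unadjusted p under 0.05). Among them Atpif1, the inhibitor of ATP synthase, had 71.9, 86.5 and 69.2 TPM in knockout, against 143, 142 and 135 TPM in wild type (-0.88, SE 0.18, adjusted p = 0.081). Its groups were well apart and tight. Ndufa4l2, a relative of Ndufa4 known for its response to hypoxia, was low in all libraries. It had 0.263, 0.289 and 0.652 TPM in knockout, against 2.29, 1.14 and 2.2 TPM in wild type (log2 fold change -1.02). It reached the filter of 1 TPM through the wild-type libraries alone, so its test gives no support for a difference.

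Assembly factors of the complexes, which build them without staying in them, were negative in 29 of 37, with a median of -0.25 (9 at an unadjusted p under 0.05). Coa4, an assembly factor of complex IV, had the largest difference, with 0.151, 0.667 and 6.95 TPM in knockout, against 8.75, 4.995 and 9.17 TPM in wild type (-1.76, adjusted p = 0.28), where knockout library 3 fell among the wild-type libraries. Ndufaf3, an assembly factor of complex I, was apart in all libraries, with 3.31, 5.02 and 6.61 TPM in knockout, against 17.2, 14.02 and 11.7 TPM in wild type (-1.38, SE 0.28, adjusted p = 0.081). Cox17, the copper chaperone of complex IV, had 39.1, 53.1 and 50.7 TPM in knockout, against 96.4, 90.2 and 85.9 TPM in wild type (-0.93, SE 0.20, adjusted p = 0.088).

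Factors that drive mitochondrial biogenesis and mitochondrial DNA expression were positive in 12 of 17, with a median of 0.20 (1 lower and 2 higher at an unadjusted p under 0.05). Over all genes tested, 6464 of 11268 were positive, with a median of 0.09. The list had a median transcript length of 4167 nt, and all genes of 3830 to 5177 nt had a median of 0.16. With GC and length trends removed, the list median was 0.17 with 4 of 17 negative, beside a median of 0.08 and 42.6% negative over all genes. Without knockout library 3 the list median was 0.47, beside 0.26 over all genes. The part of length in this list was not tested. Ppargc1a, the coactivator PGC-1 alpha, had 23.8, 21.8 and 10.2 TPM in knockout, against 4.01, 6.68 and 4.36 TPM in wild type (1.65, SE 0.36, adjusted p = 0.092). The receptor Esrrg, a partner of that coactivator, had 22.9, 15.3 and 31.1 TPM in knockout, against 60.9, 44.2 and 62.0 TPM in wild type (-1.27, SE 0.29, adjusted p = 0.099). The groups did not overlap in either gene, with opposite directions. Neither passed.

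The citric acid cycle had 13 of 19 negative with a median of -0.08, and its most distant gene was Pcx, pyruvate carboxylase (0.70, adjusted p = 0.38). Protein import had 15 of 24 negative with a median of -0.10, led by the small chaperone Timm8b (-0.97, adjusted p = 0.086). Mitochondrial ribosomal proteins had 53 of 76 negative with a median of -0.14, led by Mrpl54 (-0.88, adjusted p = 0.16). Fatty acid oxidation had 8 of 14 negative with a median of -0.04, and Cpt1a, its entry enzyme, was the most distant (0.83, adjusted p = 0.51). Glycolysis had 12 of 16 negative with a median of -0.34, led by the muscle phosphofructokinase Pfkm (-0.90, adjusted p = 0.13), and enzymes against reactive oxygen had 7 of 9 negative with a median of -0.24, led by Gpx1 (-0.94, adjusted p = 0.079). At an unadjusted p under 0.05 these lists held 1 of 19, 1 of 24, 10 of 76, 2 of 14, 3 of 16 and 2 of 9 genes in that order. All of these were lower in knockout except 1 mitochondrial ribosomal protein, where 10.5% of all genes were lower and 4.99% higher. The ribosomal proteins of the cytosol held 0, their most distant gene being Rps27 (1.08, adjusted p = 0.39).

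Within each library, summed subunit TPM were 10.8, 9.84 and 11.1 times those of the citric acid cycle in knockout, against 12.4, 11.5 and 11.4 times in wild type. They were 11.4, 10.5 and 10.7 times those of glycolysis in knockout, against 10.04, 9.90 and 10.02 times in wild type. Both ratios were apart between the groups, lower in knockout against the cycle and higher in knockout against glycolysis. Ratios to mitochondrial ribosomal proteins, assembly factors and import proteins overlapped.

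Some lists of cell type markers differed between the groups, and others overlapped or held genes of both directions. Over all genes tested, 0.319% passed as lower and 0.071% as higher, and at an unadjusted p under 0.05 10.5% were lower and 4.99% higher. Markers of the granular convoluted tubule, the secretory duct segment of rodents, summed to 9494 to 31078 TPM in knockout, against 97448 to 115536 TPM in wild type, and 4 of 9 tested fell. Basal and myoepithelial markers summed to 189 to 311 TPM in knockout, against 551 to 602 TPM in wild type, with 2 of 7 tested falling. Fibroblast markers summed to 165 to 322 TPM in knockout, against 368 to 472 TPM in wild type (1 of 9 fell), and leukocyte markers to 193 to 319 TPM in knockout, against 550 to 638 TPM in wild type (0 of 12 passed, 9 at an unadjusted p under 0.05). Acinar markers, by contrast, summed to 191292 to 240338 TPM in knockout, against 143046 to 159174 TPM in wild type, with 0 of 13 passing (1 at an unadjusted p under 0.05), although 7 of the 13 were negative and the median was -0.08. Markers of epithelium overlapped, at 768 to 1903 TPM in knockout, against 983 to 1147 TPM in wild type, and were present in all 6 libraries. Endothelial and pericyte markers overlapped too, at 26.1 to 46.1 TPM in knockout, against 35.2 to 43.2 TPM in wild type. Of 11 tested, 0 passed, with 7 positive and 4 negative. Striated duct markers summed to 7796 to 13903 TPM in knockout, against 5519 to 7277 TPM in wild type, with 0 of 13 passing. Most of these genes went the other way, with 8 of 13 negative, a median of -0.26, and 5 lower and 1 higher at an unadjusted p under 0.05. The part of cell composition in the subunit levels was not tested.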

How the data were processed

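The table holds TPM, derived by the authors from counts by adjusting for gene length and library size, as the labels state. TopHat2 2.1.1, Bowtie2 2.2.6, featureCounts 1.5.1, DESeq2 1.20.0 and the mm9 genome are named in the submitters' processing notes, in roles not given in the sources used here. Each library sums to 1000000, the depth is unknown, and counting error cannot be given. In shares of a fixed total, an abundant gene that takes more leaves less for the rest.

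Genotype labels gave the groups, and replicates were numbered by accession. Genes reaching 1 TPM in 3 or more libraries (11268 of 23366) were tested on log2(TPM + 1), knockout over wild type, with limma 3.58.1 (empirical Bayes moderation with trend, under R 4.3.3), two-sided, with Benjamini-Hochberg adjustment over all genes tested and a threshold of 0.05. Fold changes on this scale understate those of low genes. Isoform shares had exact two-sided permutation tests. Sums, medians and list counts had no test. The statistics were tested on simulated data.

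Named members are, per complex, the 3 most abundant, the most positive and the most negative, with all isoforms and all members below the filter. Each list gives its most distant gene. Ndufs8, Ndufs4, Ndufv1, Ndufa3, Ndufb2, Ndufs3, Uqcrc1, Uqcrc2, Uqcr10, Sdhd, Cox5a, Cox5b, Cox7c, Atp5j2, Atp5l, Atp5d, Atp5e, Atp5s, the peripheral stalk genes, Atpif1, Ndufaf3, Cox17, Esrrg, Acadl and the marker genes were added after their values were seen. The members and lists were chosen with earlier results of these data known. GC content and length came from GENCODE M21, which gave both for 99.5% of genes tested. Promoter windows came from RefSeq, GRCm38.p6, matched by symbol because the values rest on mm9. The 21 alternatives covered pseudocounts, filters, scalings, GC and length trends, moderation, weights, a block and libraries left out. Of these, the GC trend alone and the length trend alone were chosen after seeing the data.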

Additional observations from a re-analysis of the deposited data

How the results depend on the processing

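No member passed in any alternative except array weights, with 15 lower and 0 higher, and the fits that leave out 1 library, with 0 to 16 lower and 0 to 1 higher. The member median of -0.29 stayed negative throughout, at -0.40 after median-of-ratios scaling, -0.28 after quantile normalization, -0.35 rescaled without the 50 most abundant genes, -0.25 with array weights, -0.094 without the length trend, -0.036 without GC and length trends, -0.36 to -0.22 with 1 library left out, and -0.15 without knockout library 1 and wild-type libraries 1 and 2. Those 3 were named in an earlier account as richest in neighbouring gland markers, and leaving them out assumes that the lone wild-type library varies like the others. The sum of the 8 such markers taken here does not bear this out. It was highest in the knockouts, with 82200, 70861 and 55354 TPM, against 45818, 41610 and 45016 TPM in wild type. Of the 4 markers tested, 2 were positive and 2 negative, so the sum alone cannot say which libraries are richest. The all-gene count of 44 became 109 after median-of-ratios scaling, 72 after quantile normalization, 25 with a pseudocount of 0.1, 11 with no filter and 4822 with array weights, and it was 5127 without knockout library 3 but 0 without wild-type library 2 or 3. The block on neighbouring index numbers in the titles called 31 genes (7 higher and 24 lower) and no member, and left every member's call as it was. The labels state no pairing, and correlations of same-index deviations were 0.167, 0.232 and 0.077, each library correlating best with its own neighbour, which is a hint from the data and not the design.

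Ratios of summed TPM moved to 0.766, 0.796, 0.765 and 0.824 for complexes I, III, IV and V after median-of-ratios scaling. Without the 50 most abundant genes they were 0.792, 0.822, 0.792 and 0.829 in the same order. There complex V held 15 genes, since Atp5b is itself among the 50 removed, so its ratio also reflects a change of gene set. With 1 library left out the ratios ranged from 0.780 to 0.861 (I), 0.818 to 0.951 (II), 0.806 to 0.880 (III), 0.771 to 0.878 (IV) and 0.839 to 0.912 (V). Without wild-type library 1, complexes I, III, IV and V stood at 0.861, 0.880, 0.878 and 0.912. Differences in isoform share, in percentage points with 1 library left out, ranged from -0.022 to 0.038 (Cox4i2), -0.020 to 0.085 (Cox6a2), -0.011 to 0.012 (Cox8c), -3.49 to 4.46 (Atp5g2), -5.47 to -3.20 (Cox7a1), -4.55 to -0.94 (Cox8b), -8.08 to -1.73 (Atp5g1) and 2.75 to 5.22 (Atp5g3). No direction was stable in the first 4. Ranges are not given for Cox6b2 and Cox7b2, neither of which reached the filter. The Cox6b2 share was lower in every knockout library than in any wild-type library, so its direction holds with any 1 library left out. The Cox7b2 share was above 0 in knockout library 1 alone.

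Of the values of named members under alternatives, 568 kept their sign and their side of the threshold, 17 newly passed (with array weights or without knockout library 3) and 44 changed sign. Under median-of-ratios scaling these were Ndufs7 (-0.047), Cox7a2l (-0.015) and Atp5c1 (-0.077), and without the 50 most abundant genes Atp5c1 (-0.027). Without GC and length trends they were Ndufb9 (0.10), Sdhb (0.099), Uqcrh (0.17), Uqcrb (0.0024), Cox4i1 (0.19), Atp5b (0.057) and Atp5g3 (0.23). Without the length trend alone they were Ndufb9 (0.13), Sdhb (0.11), Uqcrh (0.11), Cox8a (0.044), Cox4i1 (0.24), Atp5b (0.060), Atp5g3 (0.19), Atp5a1 (0.0058) and Atp5g2 (0.082). Array weights turned Sdhb (0.13), Cox4i1 (0.099), Atp5a1 (0.0033) and Atp5g2 (0.039). Without the 3 libraries named above they were Sdhb (0.049), Sdha (0.12), Cox4i1 (0.011), Atp5c1 (-0.033) and Cox8b (1.82). With 1 library left out, the signs of 8 members turned, with ranges of -0.11 to 0.33 (Ndufs7), -0.11 to 0.43 (Cox7a2l), -0.041 to 0.15 (Atp5c1), -0.0999 to 0.021 (Atp5b), -0.26 to 0.080 (Sdhb), -0.13 to 0.14 (Cox4i1), -0.050 to 0.0078 (Atp5a1) and -0.11 to 0.011 (Atp5g3). The cause was not tested.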

Other observations

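Knockout library 1 held high levels of a few genes of fuel choice in mitochondria, which were picked after their values were seen. Pdk4, a kinase that blocks the entry of pyruvate into the citric acid cycle, had 1064, 54.6 and 1.23 TPM in knockout libraries 1, 2 and 3, against 8.02, 5.89 and 5.14 TPM in wild-type libraries 1, 2 and 3 (log2 fold change 2.81, SE 1.88, adjusted p = 0.46). Cpt1a, which passes long-chain fatty acids into mitochondria, had 162, 65.9 and 20.2 TPM in knockout, against 35.5, 29.99 and 35.2 TPM in wild type. Acadl, an enzyme of fatty acid oxidation, had 259.7, 58.4 and 40.95 TPM in knockout, against 55.7, 42.1 and 47.97 TPM in wild type. The 3 genes shared their order over the knockout libraries, with library 3 below every wild-type library, and none passed over all genes (adjusted p = 0.46, 0.51 and 0.50 by limma). Summed subunit TPM varied far less over the same knockout libraries, at 13057, 12790 and 12643 TPM.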
